A study of Mus musculus with 9 samples.

Results

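The 10 genes described here encode enzymes that build phospholipids and glycerolipids: Etnk1, Pcyt2, Chka, Chkb, Pcyt1a, Chpt1, Cept1, Pisd, Gpam and Lpin1. They were taken by symbol from the 25175 gene symbols listed for each library, and each symbol was found once. All 10 were among the 11337 genes that reached 1 FPKM in at least 3 libraries and were tested. The set was chosen by enzyme name, but with the FPKM values and log2 differences of these libraries already known, so the values of all 3 comparisons count as used in the choice. Their levels, differences and calls therefore describe these libraries and are not independent evidence of a direction.

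The cells were HL-1, a single immortalised line of mouse atrial cardiomyocytes, kept in Claycomb medium. One group was given ivermectin at 5 µM, another importazole at 10 µM, and the vehicle group DMSO at 0.1%, all for 24 h, with 3 libraries of poly(A) RNA per group. Ivermectin, an antiparasitic macrocyclic lactone, and importazole, a synthetic small molecule, both block nuclear import: the first acts on importin α/β and the second on importin-β. No label says that replicate libraries came from separate cultures, so p-values measure only how far these samples scatter, and that scatter may be technical. How much DMSO the compound-treated cells received is not in the labels. The compounds were given at different doses, so the direct comparison holds for these doses.

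Phosphatidylcholine and phosphatidylethanolamine, the main phospholipids of mammalian membranes, are made by the parallel branches of the Kennedy pathway. In each branch a kinase phosphorylates the free base, a cytidylyl transferase couples it to CTP, and a transferase moves the activated head group onto diacylglycerol. The cytidylyl transferase step sets the rate of each branch. The diacylglycerol comes from the glycerol branch, in which glycerol 3-phosphate is acylated to phosphatidate and dephosphorylated. Mitochondria make phosphatidylethanolamine by a separate route, from phosphatidylserine. Heart muscle membranes are rich in both phospholipids, and the sarcoplasmic reticulum and mitochondria hold much of them.

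Values are FPKM, which correct for transcript length and for library size, so levels can be set side by side between genes. The depth of the libraries is unknown. Summed FPKM ranged from 365259 to 416748, and vehicle 2 and ivermectin 3 listed the transcript Yam1 at 0, while it took up to 10.43% of the sum in the other libraries. All 8 cardiomyocyte markers were present, with summed levels of 7470.1 to 8549.2 FPKM in vehicle, 6579.9 to 7109.8 with ivermectin and 7116.9 to 7646.6 with importazole. Of 5 fibroblast markers, 4 had a mean under 1 FPKM. The fibroblast list summed to 23.3 to 26.3 FPKM in vehicle, 36.2 to 38.3 with ivermectin and 33.7 to 36.6 with importazole, nearly all of it Ddr2, and its part in the results was not tested. Summed endothelial markers were between 8.93 and 11.3 FPKM and leukocyte markers between 0.779 and 2.24 FPKM. Of the smooth muscle markers, Acta2 and Tagln gave summed levels of 1157.1 to 1402.8 FPKM, while Myh11, which defines differentiated smooth muscle, had a median of 0.082 FPKM. In bulk RNA, fewer cells of a type and less RNA per cell cannot be told apart.

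Pcyt2 was by far the most abundant of the 10 transcripts. In vehicle cells its mean was 67.2 FPKM, at the 91.4th percentile of the genes tested. Lpin1 followed at 19.7 FPKM, Pisd at 16.7, Pcyt1a at 12.8, Chpt1 at 12.3 and Etnk1 at 10.0 FPKM. Below these lay Chkb at 6.86, Chka at 6.50, Gpam at 4.74 and Cept1 at 2.68 FPKM, the last at the 15.9th percentile. The ranges of Pcyt1a and Chpt1 overlapped in vehicle, as did those of Chkb and Chka, and the other neighbours in this order did not. Pcyt2 stood first, Lpin1 next and Pisd after it in all 3 groups, although the ranges of Lpin1 and Pisd overlapped with ivermectin. Chka stood above Chkb in both compound groups, with overlapping ranges under ivermectin and separate ones under importazole.

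The ethanolamine branch opens with Etnk1, an ethanolamine kinase (GRCm38 chromosome 6, 143167221 to 143232307, plus strand). Its rate is set by Pcyt2, the cytidylyl transferase that makes CDP-ethanolamine (chromosome 11, 120610087 to 120617936, minus strand). Pcyt2 was at 78.2, 62.7 and 60.8 FPKM in vehicle 1, 2 and 3, at 57.9, 57.2 and 57.9 FPKM in ivermectin 1, 2 and 3, and at 99.7, 97.7 and 102 FPKM in importazole 1, 2 and 3. The groups did not overlap: every importazole library lay above every vehicle library, and every ivermectin library below. Vehicle 1 stood apart from the other vehicle libraries, and the compound groups were tighter than vehicle, with coefficients of variation of 0.687% for ivermectin, 1.96% for importazole and 14.3% for vehicle.

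With importazole Pcyt2 rose from 67.2 ± 9.59 to 99.7 ± 1.95 FPKM (mean ± SD, n = 3 each), 48.3% above vehicle. The log2 difference, here and below on the log2(FPKM + 1) scale, which understates changes of low genes, was 0.57 with a standard error of 0.086 (limma adjusted p = 0.00492 over all genes). Over the 19 alternative settings it stayed between 0.50 and 0.68, with limma adjusted p between 0.0004 and 0.0371. Among the 192 genes called higher with importazole its difference ranked 79. With ivermectin the level was 57.6 ± 0.396 FPKM, 0.21 log2 units below vehicle with a 95% interval from -0.40 to -0.02, and this did not pass (limma adjusted p = 0.198). Without vehicle 1 that difference was -0.10 (limma adjusted p = 0.414). Between the compounds the log2 difference was -0.78 with a standard error of 0.086 (limma adjusted p = 0.000409), and over the alternatives it lay between -0.79 and -0.73. It ranked 67 in size among the 307 genes called lower with ivermectin than with importazole.

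Etnk1 differed less. Its levels were 10.3, 9.15 and 10.6 FPKM in vehicle 1, 2 and 3, 10.7, 10.4 and 10.2 FPKM with ivermectin and 11.1, 11.8 and 12.4 FPKM with importazole. The importazole libraries all lay above the other 6, but neither difference passed. The log2 difference from vehicle was 0.22 (95% interval 0.04 to 0.39, limma adjusted p = 0.204) with importazole and 0.05 (-0.12 to 0.22) with ivermectin. Between the compounds it was -0.16 (-0.33 to 0.01, limma adjusted p = 0.292).

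**Figure D1:**
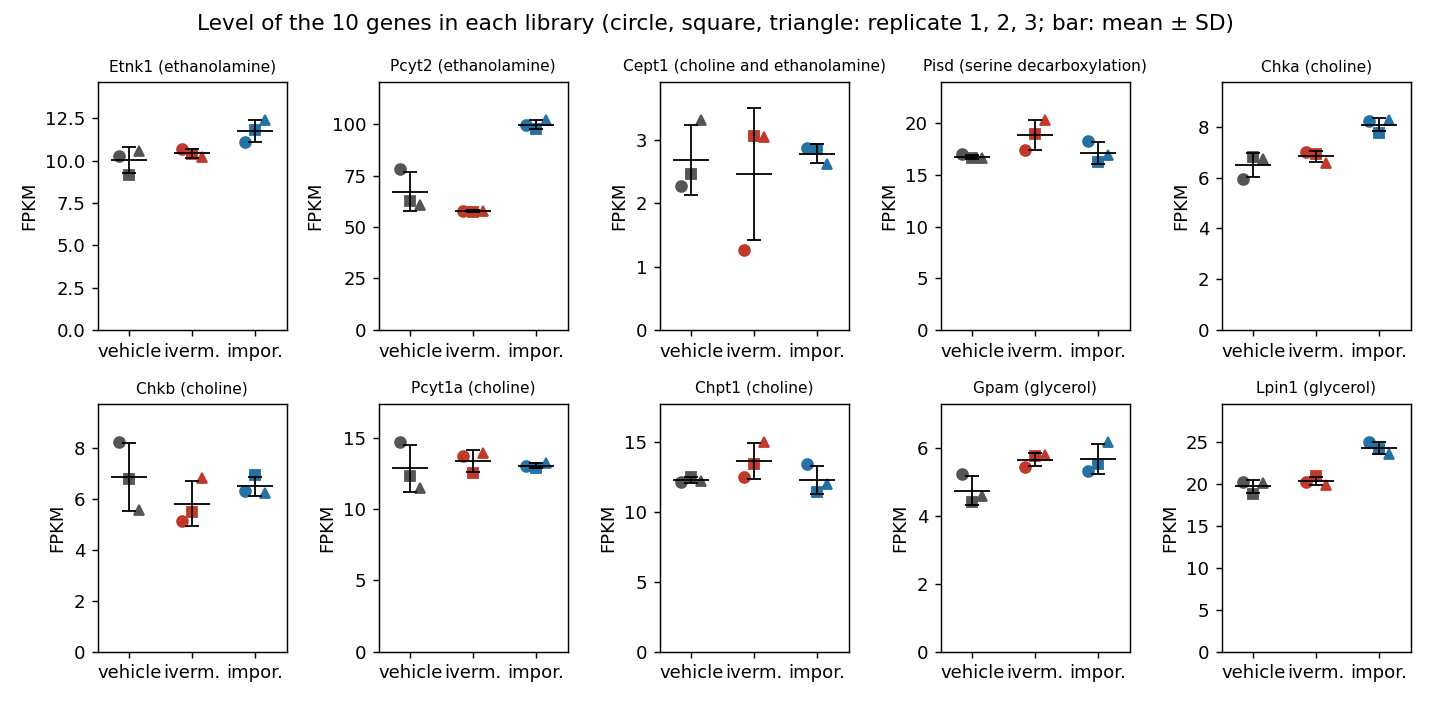
FPKM of each of the 10 genes (y axis from 0) in the 9 libraries, by group on the x axis (iverm., ivermectin; impor., importazole); circles, squares and triangles are replicates 1, 2 and 3, and bars show the mean ± SD. Pcyt2 lay between 97.7 and 102 FPKM with importazole, above all vehicle and ivermectin libraries, and Cept1 was lowest in ivermectin 1.

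The choline branch uses the kinases Chka (chromosome 19, 3851773 to 3894369, plus strand) and Chkb (chromosome 15, 89426360 to 89429908, minus strand), both of which can also phosphorylate ethanolamine. Chka was at 5.96, 6.80 and 6.74 FPKM in vehicle, 7.0, 6.93 and 6.58 FPKM with ivermectin and 8.23, 7.77 and 8.26 FPKM with importazole, in the order of libraries 1 to 3. All importazole libraries were above the other 6. The log2 difference of importazole from vehicle was 0.28 (95% interval 0.11 to 0.45), which did not pass (limma adjusted p = 0.0999). Chka was 0.21 log2 units lower with ivermectin than with importazole (limma adjusted p = 0.162), which did not pass either.

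Chkb, which is abundant in muscle, showed no such order. It was at 8.23, 6.78 and 5.57 FPKM in vehicle 1, 2 and 3, at 5.13, 5.46 and 6.81 FPKM with ivermectin and at 6.30, 6.92 and 6.24 FPKM with importazole. The groups overlapped, and the vehicle libraries alone spanned the importazole range. The 95% interval of the log2 difference from vehicle ran from -0.34 to 0.23 with importazole and from -0.49 to 0.08 with ivermectin. Its value is uncertain, because the annotated gene Gm44502 shares 50.7% of the exon bases of Chkb on the same strand.

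Pcyt1a, the cytidylyl transferase that sets the rate of phosphatidylcholine synthesis (chromosome 16, 32430921 to 32475070, plus strand), is the counterpart of Pcyt2. It was at 14.7, 12.3 and 11.5 FPKM in vehicle 1, 2 and 3, at 13.7, 12.5 and 13.9 FPKM with ivermectin and at 13.0, 12.9 and 13.2 FPKM with importazole. All groups overlapped, with the widest range in vehicle. The log2 difference from vehicle was 0.03 with importazole (95% interval -0.17 to 0.23) and 0.06 with ivermectin (-0.14 to 0.26). The interval with importazole ended below the lower bound of 0.38 for Pcyt2 in the same comparison. Both genes were measured in the same libraries, and the difference between them was not tested.

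Both cytidylyl transferases had their highest vehicle level in vehicle 1, and their ratio within a library varied little between replicates. Pcyt2 stood at 5.33, 5.09 and 5.29 times the FPKM of Pcyt1a in vehicle 1, 2 and 3, at 4.24, 4.58 and 4.18 times with ivermectin and at 7.69, 7.55 and 7.69 times with importazole. The mean ratio was 5.24 ± 0.128 in vehicle, 4.33 ± 0.216 with ivermectin and 7.64 ± 0.0823 with importazole (SD, n = 3 each). The 3 groups did not overlap, and the gaps between them were wider than the range within any group. A ratio within a library does not depend on scaling between libraries, and this one was not tested because the pair was chosen with results known. It shows an unequal change of the pair, not that either gene stayed constant.

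The ratio of Chka to Chkb overlapped between groups, at 0.724 to 1.21 in vehicle, 0.967 to 1.36 with ivermectin and 1.12 to 1.32 with importazole. The ratio of Lpin1 to Gpam, both of the glycerol branch, was 3.87 to 4.37 in vehicle, 3.45 to 3.73 with ivermectin and 3.83 to 4.69 with importazole, so the ivermectin libraries were the lowest 3 and the other groups overlapped.

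**Figure D2:**
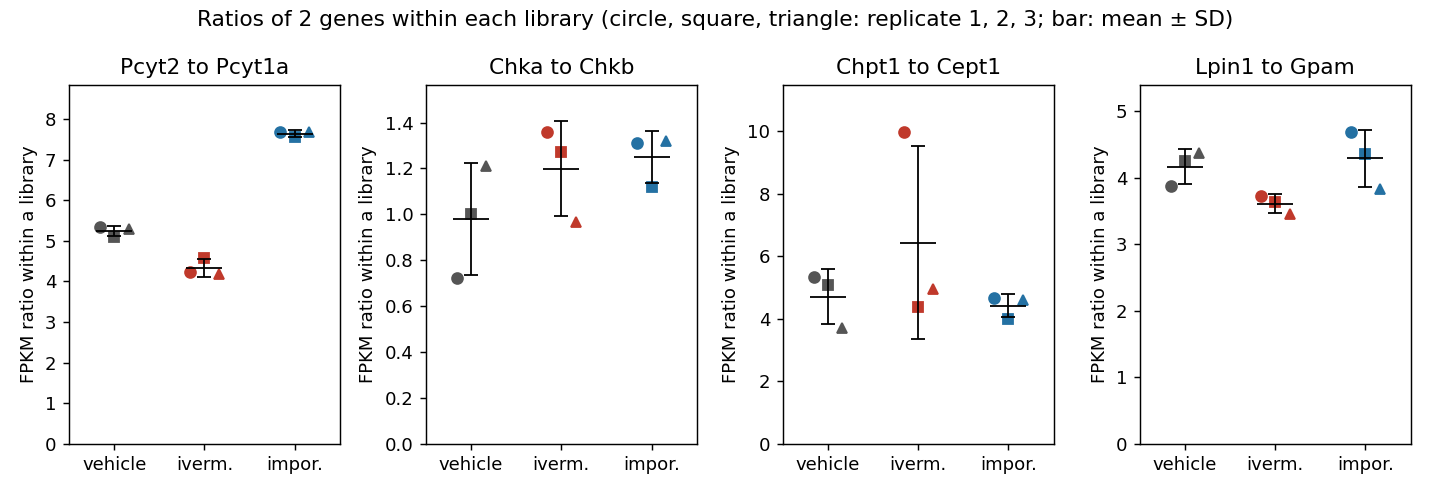
FPKM ratio of 2 genes within each library (y axis from 0) by group on the x axis, for 4 pairs; symbols are replicates 1, 2 and 3 and bars the mean ± SD. The ratio of Pcyt2 to Pcyt1a separated the groups, at 5.09 to 5.33 in vehicle, 4.18 to 4.58 with ivermectin and 7.55 to 7.69 with importazole, and Chpt1 to Cept1 reached 9.98 in ivermectin 1.

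Of the 10 genes, Chpt1 acts at the last step and makes phosphatidylcholine (chromosome 10, 88452745 to 88504073, minus strand). Cept1 also acts there and accepts both CDP-choline and CDP-ethanolamine (chromosome 3, 106502260 to 106547802, minus strand). They are not all the enzymes of this step. Ept1, of the ethanolamine branch and outside the 10, was named after its values were seen. Its means were 10.8, 10.4 and 10.9 FPKM in vehicle, ivermectin and importazole. Chpt1 was at 12.1, 12.5 and 12.2 FPKM in vehicle 1, 2 and 3, at 12.5, 13.4 and 15.0 FPKM with ivermectin and at 13.4, 11.4 and 12.0 FPKM with importazole. The ivermectin libraries lay just above the vehicle libraries, and the importazole libraries overlapped with both groups. The log2 difference from vehicle was 0.14 with ivermectin (95% interval -0.05 to 0.33, limma adjusted p = 0.383) and -0.002 with importazole (-0.19 to 0.19).

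Cept1 was at 2.27, 2.46 and 3.31 FPKM in vehicle 1, 2 and 3, at 1.26, 3.06 and 3.05 FPKM with ivermectin and at 2.87, 2.86 and 2.61 FPKM with importazole. Ivermectin 1 was far below the other 8 libraries, and the coefficient of variation in that group was 42.3%. The log2 difference of ivermectin from vehicle was -0.13 (95% interval -0.58 to 0.32), and without ivermectin 1 it was 0.15, so that library set its sign. Exons of Dennd2d on the opposite strand share 24.7% of the exon bases of Cept1, but Dennd2d itself was listed at 0.111 to 0.566 FPKM. Of the 10 genes Cept1 had the widest intervals in all 3 comparisons.

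Pisd, the mitochondrial enzyme that decarboxylates phosphatidylserine to phosphatidylethanolamine (chromosome 5, 32736301 to 32785646, minus strand), was at 17.0, 16.6 and 16.6 FPKM in vehicle 1, 2 and 3. It was at 17.4, 19.0 and 20.3 FPKM with ivermectin and at 18.3, 16.2 and 16.9 FPKM with importazole. All ivermectin libraries lay above the vehicle libraries, while those of importazole overlapped with both. The log2 difference from vehicle was 0.16 with ivermectin (limma adjusted p = 0.248) and 0.03 with importazole (limma adjusted p = 0.875), and neither passed. Pisd has transcribed pseudogene copies, Pisd-ps1 and Pisd-ps2. Of the 3048 windows of 50 bases in its longest annotated transcript, 4.7% also occurred in transcripts of Pisd-ps1 and 7.0% in those of Pisd-ps2, and the annotated protein-coding gene Gm20671 shares 20.1% of the exon bases of Pisd on the same strand. Reads could be shared with any of them, so the level is uncertain. Pisd-ps1 was listed at mean levels of 47.8, 54.2 and 44.7 FPKM in vehicle, ivermectin and importazole, above Pisd itself, and Pisd-ps2 at 14.8, 17.1 and 14.5 FPKM.

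The glycerol branch was represented by Gpam, the mitochondrial acyltransferase that starts it (chromosome 19, 55067268 to 55127238, minus strand), and by Lpin1, the phosphatidate phosphatase that yields diacylglycerol and also acts as a transcriptional coactivator (chromosome 12, 16535669 to 16610966, minus strand). Lpin1 was at 20.2, 18.8 and 20.1 FPKM in vehicle 1, 2 and 3, at 20.2, 20.9 and 19.9 FPKM with ivermectin and at 25.0, 24.1 and 23.6 FPKM with importazole. All importazole libraries were above the other 6, and vehicle and ivermectin overlapped. Lpin1 rose with importazole by 23.1%, from 19.7 ± 0.777 to 24.2 ± 0.683 FPKM (SD, n = 3 each). The log2 difference was 0.29 with a standard error of 0.062 (limma adjusted p = 0.0407), rank 184 in size among the 192 genes called higher. The call was kept in 4 of 19 alternatives. It ended when any one of the libraries other than ivermectin 3 was left out (limma adjusted p from 0.0563 to 0.16), and under 7 other settings, scaling between libraries among them. Lpin1 was 0.24 log2 units lower with ivermectin than with importazole (limma adjusted p = 0.0629), which did not pass.

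Gpam was at 5.21, 4.41 and 4.59 FPKM in vehicle 1, 2 and 3, at 5.42, 5.74 and 5.77 FPKM with ivermectin and at 5.32, 5.53 and 6.17 FPKM with importazole. Both compound groups lay above vehicle in every library and overlapped with each other. Its log2 differences from vehicle were 0.21 with ivermectin (95% interval 0.02 to 0.40, limma adjusted p = 0.196) and 0.22 with importazole (0.03 to 0.41, limma adjusted p = 0.252). Neither passed, and both use the same vehicle libraries. The direct log2 difference was -0.01, with a 95% interval from -0.20 to 0.18.

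**Figure D3:**
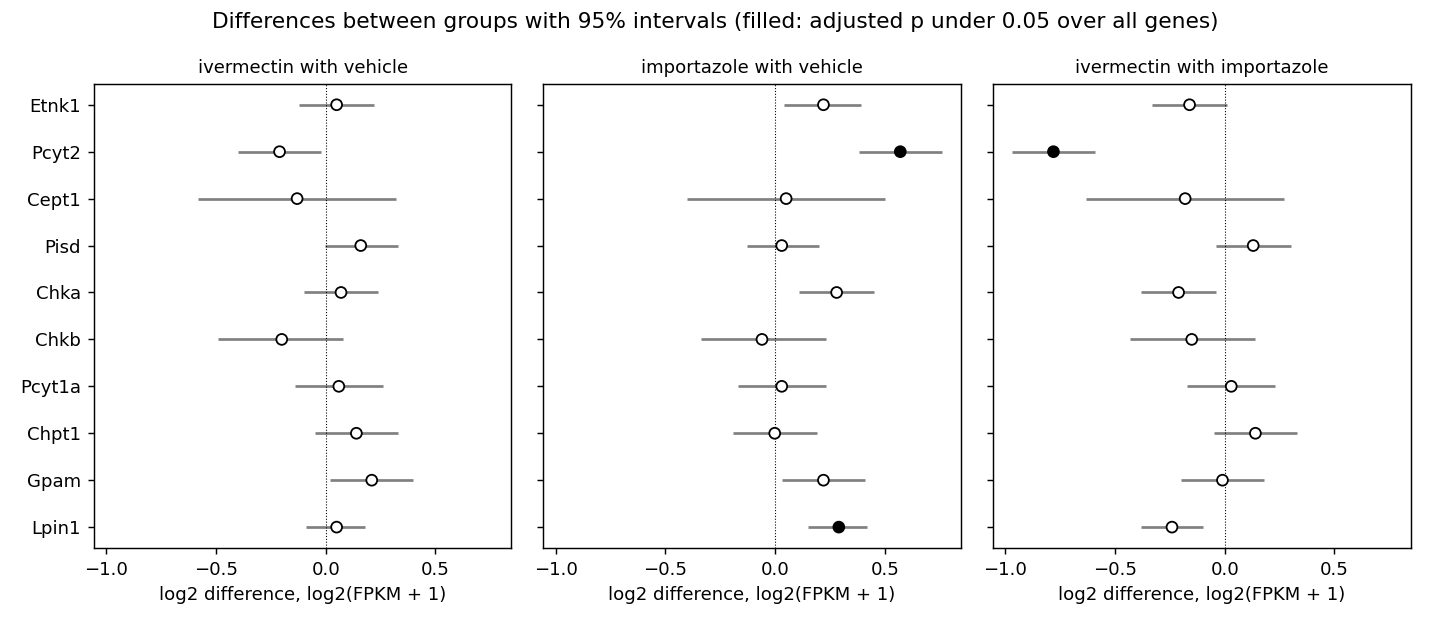
Log2 difference of each gene on the log2(FPKM + 1) scale (x axis) with its unadjusted 95% interval, for the 3 comparisons; filled points have a limma adjusted p under 0.05 over all 11337 genes. Filled points are Pcyt2 and Lpin1 for importazole with vehicle and Pcyt2 for ivermectin with importazole.

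Promoter sequences from RefSeq (GRCm38.p6), 250 bases before to 50 after a transcription start, were matched by symbol to 9 of the 10 genes; Pcyt2 was not among them. Where a gene had several, the window nearest to its annotated start was used. The windows were searched on both strands for the E-box CACGTG, the inverted CCAAT box ATTGG and the amino acid response letters TGATGNAAN. The 3 shown are those of Chka and Chkb, the kinase pair of which Chka alone had importazole libraries wholly above vehicle, and of Gpam, which held matches to more than one motif. Capitals mark every match to these motifs and to no others. The Chka window is chr19:3851523-3851822, plus strand, the Chkb window chr15:89429878-89430177, minus strand, and the Gpam window chr19:55127189-55127488, minus strand.
Chka: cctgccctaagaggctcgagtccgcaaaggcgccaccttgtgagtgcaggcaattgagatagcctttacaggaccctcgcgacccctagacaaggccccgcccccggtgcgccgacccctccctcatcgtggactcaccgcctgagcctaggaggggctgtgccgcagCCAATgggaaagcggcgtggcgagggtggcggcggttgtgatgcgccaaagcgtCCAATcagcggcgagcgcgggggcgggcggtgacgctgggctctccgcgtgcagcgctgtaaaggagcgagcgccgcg
Chkb: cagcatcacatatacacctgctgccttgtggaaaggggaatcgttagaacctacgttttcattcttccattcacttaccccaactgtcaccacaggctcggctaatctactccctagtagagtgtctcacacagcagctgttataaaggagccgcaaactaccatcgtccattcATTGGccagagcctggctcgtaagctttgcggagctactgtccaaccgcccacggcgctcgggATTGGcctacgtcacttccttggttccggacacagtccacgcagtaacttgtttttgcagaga
Gpam: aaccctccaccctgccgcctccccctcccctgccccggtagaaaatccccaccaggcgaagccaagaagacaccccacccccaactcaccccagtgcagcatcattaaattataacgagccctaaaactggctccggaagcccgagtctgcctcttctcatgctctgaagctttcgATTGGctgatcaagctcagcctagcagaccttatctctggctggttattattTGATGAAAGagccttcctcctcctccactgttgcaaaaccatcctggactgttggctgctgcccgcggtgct

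The CCAAT box letters began 82 and 28 bases before the start in Chka, on the minus strand of the gene, and 76 and 13 bases before it in Chkb, on the plus strand. Gpam had them 74 bases before the start, Pisd 57 and Chpt1 225, and 37.4% of all 32851 promoter windows held them. The amino acid response letters occurred in Gpam, 22 bases before the start, and in 3.95% of all windows. The E-box, in 7.15% of all windows, was found in none of the 9. The windows of Lpin1, Etnk1, Pcyt1a and Cept1 held none of the 3 motifs. Matches to other motifs, sterol elements among them, are not reported here, so a window without capitals may still hold them. Matches are a description of letters and not of bound sites.

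Counted over the 10 genes, importazole against vehicle gave 2 calls, both upward (Pcyt2 and Lpin1), where 2.26% of the 11337 genes were called, 1.69% as higher and 0.565% as lower. At an unadjusted p under 0.05, 5 were higher and 0 lower, where 11.3% of all genes were higher and 4.48% lower (15.8% in either direction). Ivermectin against vehicle gave 0 calls by limma, where 4.31% of genes were called, 1.79% as higher and 2.52% as lower. At an unadjusted p under 0.05, 1 was higher (Gpam) and 1 lower (Pcyt2), where 20.7% of genes reached that level, 10.5% as higher and 10.3% as lower. The direct comparison gave 1 call, Pcyt2, lower with ivermectin, where 3.42% of genes were called, 0.714% as higher and 2.71% as lower. At an unadjusted p under 0.05, 0 were higher and 3 lower, where 19.0% of genes reached that level, 6.13% as higher and 12.8% as lower.

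The libraries did not overlap for 5 of the 10 genes with importazole against vehicle, all of them higher (Pcyt2, Etnk1, Chka, Lpin1 and Gpam), where 16.5% of all genes were higher in this way, 7.07% were lower and 23.6% were either. With ivermectin against vehicle 3 genes lay wholly above (Chpt1, Pisd and Gpam), where 12.4% did so, and 1 wholly below (Pcyt2), where 12.2% did so and 24.6% did either. In the direct comparison 4 lay wholly below (Pcyt2, Etnk1, Chka and Lpin1), where 16.1% did so, and 0 wholly above, where 8.04% did so (24.2% for either). The median log2 difference of the 10 genes was 0.055 for ivermectin, 0.132 for importazole and -0.154 for the direct comparison, beside 0.014, 0.041 and -0.026 over all genes tested. Since the genes were named with these comparisons known, nothing is read from these counts.

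By branch, with importazole Etnk1 and Pcyt2 of the ethanolamine branch and Gpam and Lpin1 of the glycerol branch lay wholly above vehicle. Of all genes tested 16.5% did so. Pcyt2 passed, Lpin1 passed with a call kept in 4 of 19 alternatives, and Etnk1 and Gpam did not pass. Of the choline branch Chka lay wholly above vehicle, while Chkb, Pcyt1a and Chpt1 overlapped with it. Cept1, shared by the ethanolamine and choline branches, overlapped as well. Of 9 other tested genes of glycerol and phosphatidate synthesis 0 passed with importazole, where 2.26% of all genes did. With ivermectin the branches had no common direction: Pcyt2 was at the low side of vehicle, Gpam, Pisd and Chpt1 at the high side, and none passed.

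Other genes of phospholipid and glycerolipid metabolism were taken from a list of 54, of which 53 were listed in the files and 40 were tested. For importazole against vehicle 0 of the 40 passed limma's test, where 2.26% of all genes did. At an unadjusted p under 0.05, 7 were higher and 3 lower, where 11.3% of all genes were higher and 4.48% lower. For ivermectin against vehicle 1 of the 40 was called lower, where 2.52% of all genes were, and 0 higher. At an unadjusted p under 0.05, 2 were higher and 8 lower, where 10.5% of all genes were higher and 10.3% lower. The called gene was Phospho1, a phosphatase of phosphoethanolamine and phosphocholine, at 119, 111 and 110 FPKM in vehicle 1, 2 and 3, at 89.3, 90.8 and 93.3 FPKM with ivermectin and at 107, 101 and 100 FPKM with importazole. The vehicle libraries were the highest 3 and the ivermectin libraries the lowest. The log2 difference of ivermectin from vehicle was -0.31 (limma adjusted p = 0.0119), and its adjusted p stayed at or below 0.0497 in all 19 alternatives. The 40 genes had median log2 differences of -0.064 with ivermectin and 0.073 with importazole.

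In the direct comparison 3 of the 40 were called lower with ivermectin, where 2.71% of all genes were, and 0 higher. After quantile normalization the split was 1 lower (Pcyt1b) and 1 higher (Slc44a2, a choline transporter-like protein, named after its values were seen). The 3 genes each had importazole libraries above vehicle and ivermectin libraries below. Pcyt1b, which encodes the second choline-phosphate cytidylyl transferase, was at 2.24, 2.10 and 2.25 FPKM in vehicle, 1.66, 1.84 and 1.84 FPKM with ivermectin and 2.69, 2.80 and 3.0 FPKM with importazole (log2 difference between compounds -0.46, limma adjusted p = 0.0172). Unlike Pcyt1a it had separate ranges in all 3 groups, at a much lower level. Lpcat3, which places unsaturated acyl chains on lysophospholipids, was at 48.5, 51.6 and 51.8 FPKM in vehicle, 47.5, 44.8 and 41.6 FPKM with ivermectin and 54.3, 61.4 and 56.7 FPKM with importazole (-0.36, limma adjusted p = 0.0197). Agpat5, an acyltransferase that makes phosphatidate, had means of 10.6, 9.77 and 12.6 FPKM in vehicle, ivermectin and importazole (-0.34, limma adjusted p = 0.0385). Each of these calls depended on single libraries. That of Pcyt1b ended without ivermectin 1, importazole 2 or importazole 3 (limma adjusted p up to 0.0712), that of Lpcat3 without ivermectin 2 or 3 or importazole 2 or 3 (up to 0.0897), and that of Agpat5 without any library but vehicle 1 or 3 (up to 0.136). All 3 calls ended without vehicle 2 and ivermectin 3, which list Yam1 at 0. Those of Lpcat3 and Agpat5 also ended without a filter and after quantile normalization (limma adjusted p up to 0.0946). That of Agpat5 ended as well with median-of-ratios scaling (limma adjusted p = 0.0629) and with only the 6 libraries compared (0.0647).

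Lists of cholesterol synthesis and fatty acid synthesis, which share the sterol element-binding proteins as regulators with some glycerolipid genes, are given beside these values. Of 18 cholesterol synthesis genes, 16 were called higher with importazole, where 1.69% of all genes were, and 12 lower with ivermectin, where 2.52% were. Their median log2 differences were 0.785 and -0.432. Of 13 fatty acid synthesis genes 8 were called higher with importazole, with a median of 0.469. With ivermectin 0 of them passed limma's test, where 4.31% of all genes did. At an unadjusted p under 0.05, 1 was higher and 2 lower with ivermectin, where 10.5% of all genes were higher and 10.3% lower. Pcyt2, at 0.57 and -0.21, lay between the medians of the 2 lists in the importazole comparison. The medians of the 10 genes and of the 40 other pathway genes were nearer to 0 than those of either list with importazole. The difference between lists was not tested, and the 2 comparisons with vehicle share the vehicle libraries. An earlier analysis of these data had shown the direction of both lists, so they add no independent support.

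**Figure D4:**
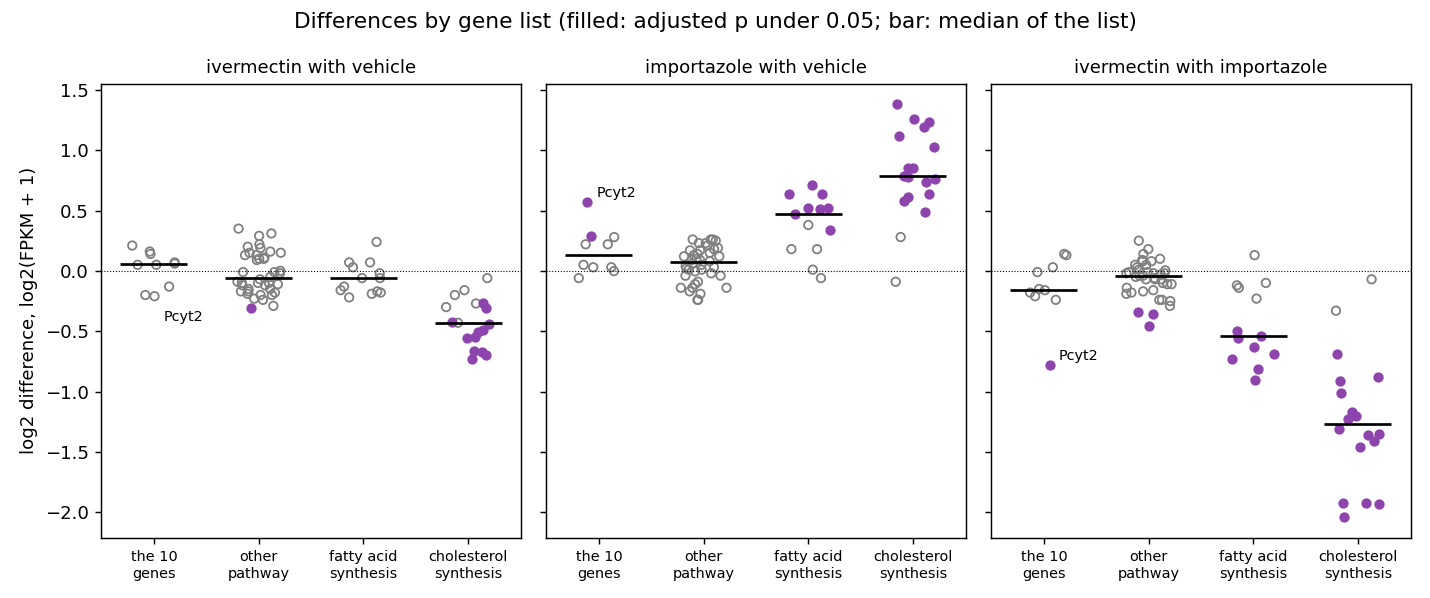
Log2 differences on the log2(FPKM + 1) scale (y axis) of single genes in 4 lists (x axis) for the 3 comparisons; filled points have a limma adjusted p under 0.05 and bars are medians. With importazole the bar was at 0.132 for the 10 genes, 0.073 for the other pathway genes, 0.469 for fatty acid synthesis and 0.785 for cholesterol synthesis, and Pcyt2 is labelled at 0.57.

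Across the 9 libraries the transcripts whose levels followed Pcyt2 most closely, among 7776 named genes with a mean of at least 5 FPKM, were Dhcr7, Nsdhl, Sqle, Vimp and Insig1. Pearson correlations of log2(FPKM + 1) were 0.9734, 0.9723, 0.9721, 0.9674 and 0.9666 in that order, and none fell below 0.956 when 1 library was left out. Dhcr7 encodes the reductase of the last step of cholesterol synthesis, Nsdhl and Sqle other sterol enzymes, Vimp a selenoprotein of the endoplasmic reticulum and Insig1 a sterol-dependent anchor of the sterol element-binding proteins. Dhcr7 was at 21.8 ± 0.882 FPKM in vehicle, 17.3 ± 0.283 with ivermectin and 40.2 ± 0.846 with importazole, and Insig1 at 53.0 ± 2.25, 40.0 ± 0.695 and 117 ± 3.64 FPKM (SD, n = 3 each). As a ratio of the importazole to the ivermectin mean, both differed more between groups than Pcyt2 did. By the same ratio Vimp differed less, from 20.4 ± 0.785 with ivermectin to 26.3 ± 0.713 FPKM with importazole. The 9 points fall in 3 groups and share their libraries, so they are not independent and the correlations are given as a description.

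**Figure D5:**
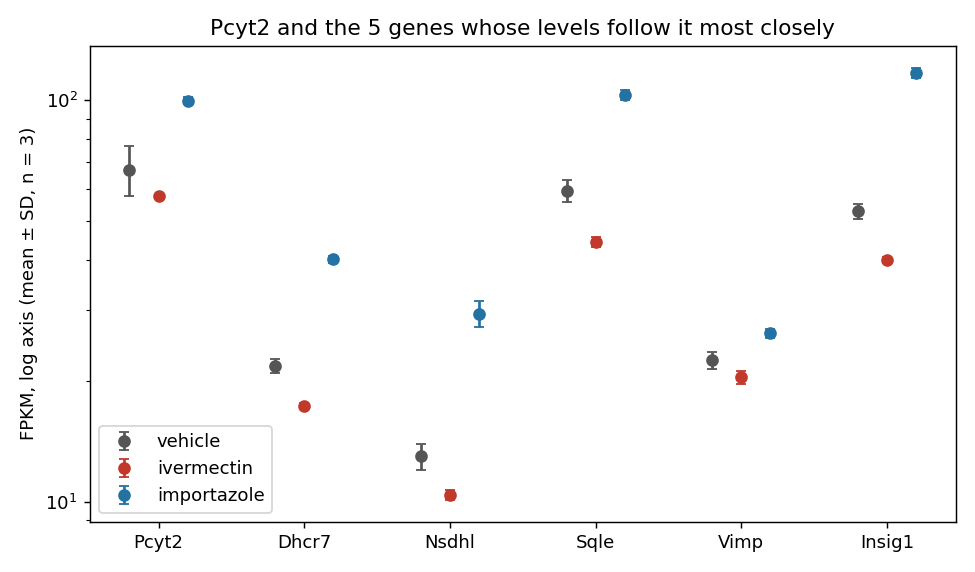
FPKM on a log axis (mean ± SD, n = 3) in vehicle, ivermectin and importazole for Pcyt2 and the 5 genes with the highest correlation to it over 9 libraries. All 6 were lowest with ivermectin and highest with importazole, and Pcyt2 in vehicle had the widest error bar, at 67.2 ± 9.59 FPKM.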

How the data were processed

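Poly(A) RNA of 9 HL-1 libraries was sequenced on the Ion Proton system, per the labels' protocols. The deposited files give FPKM per gene symbol, per the file headers. STAR, Bowtie2, Bowtie and Cufflinks and the builds mm10 and GRCm38 are named without versions or roles in the submitters' processing notes; gene models, strandedness and filters, not given in the sources used here, could not be checked. Without counts, no counting interval is given.

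For 48 symbols with several entries the FPKM were added up, and a gene was tested if 3 or more libraries reached 1 FPKM. Log2(FPKM + 1) was fitted with group as the only term in limma 3.58.1 (R 4.3.3; intensity trend, robust moderation), over all 9 libraries and 11337 genes. Calls are two-sided at a Benjamini-Hochberg adjusted p under 0.05 over all genes, and 95% intervals are unadjusted. The fit was tested on simulated data with changes of 0.25, 0.5 and 1 log2 units. It recovered 7.5%, 52.2% and 95.5% of them for ivermectin against vehicle. For importazole against vehicle it recovered 11.9%, 46.3% and 95.5%, and in the direct comparison 11.9%, 55.2% and 90.9%. Most changes near 0.25 would be missed, so a difference of that size that did not pass is not shown to be absent. Positions and exon overlaps are from GENCODE M21 (GRCm38).

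The 10 genes and all lists were chosen with earlier results of these data known. All 10 are named; of other lists, up to 6 genes with the smallest adjusted p among those called could be named. Genes like Pcyt2 are the 5 with the highest correlation. Alternatives were pseudocounts 0.1 and 0.5, no filter or one at 5 FPKM, 2 scalings, the replicate number as a block, 6 libraries per fit, plain moderation, and leaving out libraries. Protein sequences were not used here, and 1 gene of the cholesterol list is not reported here.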

Additional observations from a re-analysis of the deposited data

How the results depend on the processing

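Pcyt2 kept its calls and directions in all 19 alternatives. Depth is unknown, so no counting error could be set beside these values. The call of Lpin1 with importazole was the one among the 10 genes that ended: 1 member was called instead of 2 with no filter, quantile normalization, median-of-ratios scaling, the replicate block, the 6 libraries compared, plain moderation, and without the pair of libraries in which Yam1 is listed at 0. Leaving out 1 library gave 1 to 2 members for importazole, 0 to 0 for ivermectin and 1 to 1 for the direct comparison. Without a filter 211, 133 and 177 genes were called for ivermectin, importazole and the direct comparison, instead of 489, 256 and 388. Without both Yam1 libraries the numbers were 195, 161 and 233, and with the 6 libraries compared ivermectin gave 274. Leaving out 1 library gave 243 to 399, 128 to 320 and 177 to 396 genes. Calls for importazole split 192 higher to 64 lower, and 159 to 117 after quantile normalization or 159 to 118 after median-of-ratios scaling; those for the direct comparison split 81 to 307, and 191 to 274 or 161 to 280. Of the 40 other pathway genes, 2 were called with ivermectin and 0 in the direct comparison without both Yam1 libraries, and 1 in the direct comparison without a filter. Leaving out 1 library gave 1 to 2 with ivermectin, 0 to 0 with importazole and 0 to 3 in the direct comparison. The cause of these shifts was not tested.

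Differences that changed sign all belonged to members that did not pass. With quantile normalization and median-of-ratios scaling the log2 difference of Pcyt1a with importazole was -0.02 and -0.01, that of Pisd -0.01 and -0.01, and that of Gpam in the direct comparison 0.02 and 0.03; without both Yam1 libraries that of Chpt1 with importazole was 0.01. Leaving out 1 library gave -0.01 to 0.15 for Pcyt1a, -0.01 to 0.09 for Etnk1 and -0.27 to 0.15 for Cept1 with ivermectin. With importazole it gave -0.04 to 0.12 for Pcyt1a, -0.18 to 0.06 for Chkb, -0.06 to 0.04 for Chpt1, -0.03 to 0.17 for Cept1 and -0.01 to 0.07 for Pisd. In the direct comparison it gave -0.32 to 0.10 for Cept1 and -0.04 to 0.05 for Gpam.

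Deviations of same-numbered libraries correlated between -0.21 and 0.145, and those of differently numbered libraries between -0.219 and 0.307. The replicate numbers thus gave no sign of pairing, but such correlations cannot exclude a shared culture or batch. The value of 0.307 was that of vehicle 2 and ivermectin 3, which list Yam1 at 0, and its cause was not tested. With the replicate block 257 genes were called in the direct comparison instead of 388, and the calls of Lpin1 and Agpat5 ended.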
